A study of Mus musculus with 43 samples.

Results

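The genes described here are 37 transcripts of lymphocytes and of the lymph node, read in inguinal white fat (iWAT) of the mouse. They were picked by symbol from a list made with earlier results of these data known. Their counts are therefore set beside those of all genes as description only. All 37 occurred among the 26264 genes of the count tables. By role they are 13 B cell genes, 8 genes of major histocompatibility complex (MHC) class II presentation, 9 T cell genes, 5 genes of lymph node vessels and sinuses, the lymphoid cytokine gene Ltb and the costimulation receptor gene Cd40. The study asks what loss of the transcription factors RUNX1 or RUNX2 in adipocytes does to fat, and 18 of its 43 libraries come from inguinal fat, 3 for each of 6 groups. The first pair of groups is Adipoq-cre:Runx1 KO fat and its Runx1 flox control, whose genotype is given as WT. The second is Adipoq-cre:Runx2 KO fat and its Runx2 flox control, likewise given as WT. The third is fat labelled HFD from mice named as knocked out for Runx1, set against HFD fat of WT mice. The labels of this last pair name neither a Cre line nor a floxed allele, and do not spell out HFD. No label gives age or sex, or says whether the lymph node was taken out or whether the 3 libraries of a group came from separate animals. The p-values below therefore measure only the spread between libraries, which may be technical. Adipoq drives Cre in adipocytes, so in the first pairs the floxed gene is expected to stay intact in lymphocytes. In which cells Cre acted was not tested here.

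The inguinal fat pad of the mouse encloses a lymph node, and lymphocytes also live scattered in fat. In a node, B cells sit in follicles and T cells in the paracortex beside them. Lymphocytes enter from the blood through high endothelial venules, whose cells carry sulfated ligands for L-selectin, and macrophages line the sinuses through which lymph drains. MHC class II molecules show peptides to CD4 T cells, and B cells, dendritic cells and many macrophages all carry them. In whole tissue, fewer cells of a type and less RNA per cell cannot be told apart.

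The 18 libraries held 32536762 to 52171378 counts each. Levels are given as CPM, the counts scaled to a common library total, always in the order of replicates 1, 2 and 3. They are not divided by gene length, so levels and ratios of genes are compared between libraries and never read as one gene being higher than another, and the 3 tables were scaled separately. A gene was called at an adjusted p under 0.05 in edgeR's quasi-likelihood (QL) test. All 37 genes passed the filter on low counts in each table. The labelled tissue was checked with 10 adipocyte genes, whose summed level lay between 14254 and 47704 CPM in the 18 libraries. Some libraries departed from the rest before any comparison. Replicate 3 of the Runx2 flox controls stood apart from replicates 1 and 2 in nearly all of the 37 genes. The sum of 8 skeletal muscle genes was 17999 and 8702 CPM in replicates 2 and 3 of the Runx1 KO group, 8098 CPM in replicate 2 of the Runx1 flox group and 8915 CPM in replicate 3 of the Runx2 flox group, and at most 534 CPM in the other 14 libraries. Muscle lies next to the fat pad, and its part in the results below was not tested. The deleted genes were checked next. Runx1 itself had 20.7, 20.7 and 21.4 CPM in Runx1 KO fat, against 25.3, 28.4 and 42.8 CPM in Runx1 flox fat (log2 -0.62, SE 0.19, edgeR QL adjusted p = 0.078). Runx2 had 3.82, 6.75 and 2.4 CPM in Runx2 KO fat, against 14.99, 10.5 and 4.2 CPM in Runx2 flox fat (log2 -1.19, SE 0.53, edgeR QL adjusted p = 0.25). In HFD fat, Runx1 had 12.99, 13.9 and 8.15 CPM in Runx1 KO mice, against 8.68, 16.7 and 17.9 CPM in WT mice (log2 -0.30, SE 0.32, edgeR QL adjusted p = 0.95). The gene that was not targeted also had a fold change below 0 in Runx1 KO and in Runx2 KO fat. Runx1 had 12.3, 11.9 and 8.99 CPM in Runx2 KO fat, against 34.8, 31.2 and 14.7 CPM in Runx2 flox fat (log2 -1.28, SE 0.33, edgeR QL adjusted p = 0.22), and the fold change of Runx2 in Runx1 KO fat was log2 -0.58 (SE 0.25, edgeR QL adjusted p = 0.18). None of these 5 differences passed the test, and the groups overlapped for Runx2 in Runx2 KO fat and for Runx1 in HFD fat. In HFD Runx1 KO fat Runx2 had a fold change above 0, which was not called either (log2 0.53, SE 0.33, edgeR QL adjusted p = 0.83). The fold change of Runx1 was thus larger in Runx2 KO than in Runx1 KO fat, and that difference was not called (edgeR QL adjusted p = 0.38). A count over the whole gene does not show a deleted exon, and cells other than adipocytes express both genes, so it checks the labels only in part.

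Together the 37 genes took up very different shares of the libraries. They made up 0.136 to 0.17% of the scaled counts in HFD Runx1 KO fat, against 0.295 to 0.381% in HFD WT fat. Their share was 0.372 to 0.586% in Runx2 KO fat, against 1.54, 1.39 and 0.441% in the 3 Runx2 flox libraries. It was 0.925 to 1.12% in Runx1 KO fat, against 0.974 to 1.49% in Runx1 flox fat. The control groups thus differed among themselves, with HFD WT fat below every Runx1 flox and Runx2 flox library. Age, diet and dissection could differ between tables as well, and the table cannot be told apart from them.

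**Figure D1:**
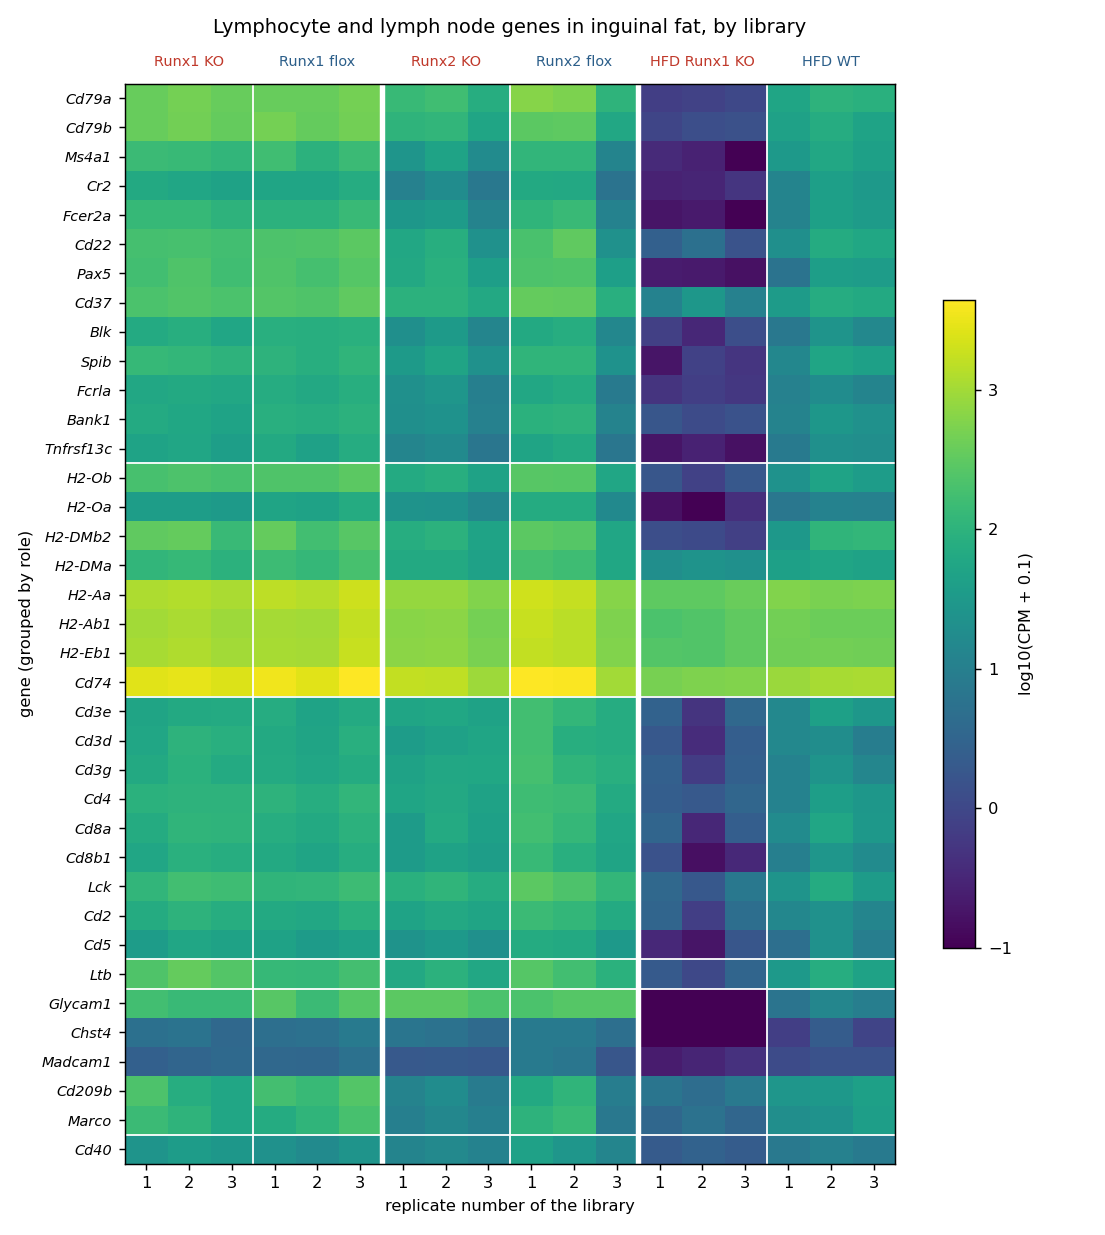
Level of each of the 37 genes in each of the 18 inguinal fat libraries, as log10 of CPM plus 0.1, with genes in rows grouped by role and libraries in columns by group and replicate (KO groups in red and their controls in blue type, white lines between groups). The HFD Runx1 KO columns are dark for B cell, T cell and vessel genes and stay bright for H2-Aa, H2-Ab1, H2-Eb1 and Cd74, and the third Runx2 flox column resembles the Runx2 KO columns.

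In HFD fat, transcripts of lymphocytes and lymph node vessels were far lower in Runx1 KO than in WT mice. Of the 37 genes, 32 fell and 0 rose, where 2.07% and 0.0465% of the 15058 genes tested were called lower and higher, 2.11% in all. Of the B cell genes 13 of 13 were called lower, with a median log2 fold change of -6.57. Of the T cell genes 9 of 9 were called lower, with a median of -3.42. The venule genes Glycam1 and Chst4 fell to 0 counts. All 37 genes lay below every WT library in every KO library, which held for 6.75% of all genes tested, while 5.55% of all genes lay above every WT library. Of the 37, 12 had under 1 CPM in every KO library. Glycam1 and Chst4, at 0 counts there, passed the filter on low counts only through the WT libraries, and others of the 12 may have done so. For such genes a place below WT was largely fixed by their being tested. An unadjusted p under 0.05 was reached by 37 of the 37 and by 8.5% of all genes. The 5 genes not called were Cd74, H2-Aa, H2-Ab1 and H2-Eb1, the classical class II genes with their invariant chain, and Madcam1. The median over the 37 genes was -4.12, where that over all genes was 0.0057. In KO fat 17 of the 37 had means under 5% of those in WT fat, 13 lay between 5 and 25%, and 7 lay above 25%.

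The signalling chains of the B cell receptor fell to at most 1.3 CPM. Cd79a had 0.629, 0.722 and 0.915 CPM in HFD Runx1 KO fat, against 53.8, 98.8 and 86.98 CPM in HFD WT fat (log2 -6.73, SE 0.29, edgeR QL adjusted p = 1.9e-06). The Cd79a values rest on 85 counts in the 3 KO libraries, against 8771 counts in the 3 WT libraries. Cd79b had 0.824, 1.21 and 1.3 CPM in HFD Runx1 KO fat, against 45.3, 76.4 and 49.2 CPM in HFD WT fat. Every KO library held under 2% of the Cd79a level of the lowest WT library, and the KO libraries differed little among themselves. Ms4a1, which encodes the B cell surface protein CD20, had 0.26, 0.173 and 0 CPM in HFD Runx1 KO fat, against 31.1, 59.96 and 42.8 CPM in HFD WT fat (log2 -8.15, SE 0.60). Pax5, the transcription factor that holds cells in the B lineage, had 0.13, 0.116 and 0.059 CPM in HFD Runx1 KO fat, against 5.86, 40.3 and 37.4 CPM in HFD WT fat. The first WT library was well below the other WT libraries in Pax5, yet it was still far above all KO libraries.

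Follicular B cells carry the complement receptor Cr2, which follicular dendritic cells also make, and the low-affinity IgE receptor Fcer2a. Cr2 had 0.173, 0.202 and 0.413 CPM in HFD Runx1 KO fat, against 12.2, 42.5 and 33.02 CPM in HFD WT fat (log2 -6.81, SE 0.53). Fcer2a had 0.0867, 0.116 and 0 CPM in HFD Runx1 KO fat, against 11.7, 43.6 and 34.8 CPM in HFD WT fat (log2 -8.69, SE 0.85). Only 29 and 8 counts of Cr2 and Fcer2a were left in the 3 KO libraries together, against 3219 and 3304 counts in the WT libraries. Spib, an Ets factor of B cells and plasmacytoid dendritic cells, had 0.0867, 0.693 and 0.413 CPM in HFD Runx1 KO fat, against 14.3, 52.9 and 42.95 CPM in HFD WT fat. Tnfrsf13c, the receptor for the survival factor BAFF, had 0.0867, 0.173 and 0.059 CPM in HFD Runx1 KO fat, against 8.14, 21.7 and 19.7 CPM in HFD WT fat. The groups were again wide apart in both genes.

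The remaining B cell genes fell less steeply. Cd22, an inhibitory coreceptor of B cells, had 2.54, 5.14 and 1.42 CPM in HFD Runx1 KO fat, against 20.4, 73.3 and 59.5 CPM in HFD WT fat (log2 -4.07, SE 0.49). Blk had 0.672, 0.231 and 1.21 CPM in HFD Runx1 KO fat, against 7.1, 25.3 and 14.4 CPM in HFD WT fat, and it encodes a Src-family kinase of B cells. Fcrla, an Fc receptor-like protein of B cells, had 0.39, 0.636 and 0.472 CPM in HFD Runx1 KO fat, against 11.1, 17.98 and 12.4 CPM in HFD WT fat. The groups did not overlap in any of these. Bank1, a scaffold in B cell receptor signalling, had 1.63, 1.07 and 1.36 CPM in HFD Runx1 KO fat, against 11.98, 28.9 and 22.5 CPM in HFD WT fat. Cd37, a tetraspanin found on B cells and on other leukocytes, had 11.3, 28.2 and 10.8 CPM in HFD Runx1 KO fat, against 35.5, 75.2 and 66.4 CPM in HFD WT fat (log2 -1.81, SE 0.39, edgeR QL adjusted p = 0.04). Cd37 had the smallest fall of the 13, with the second KO library close to the lowest WT library. It was not called without HFD WT replicate 2 or 3, or without HFD Runx1 KO replicate 1 or 3 (edgeR QL adjusted p = 0.14 to 0.22), while the other 12 B cell genes passed in each of the 6 fits that left out 1 library.

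**Figure D2:**
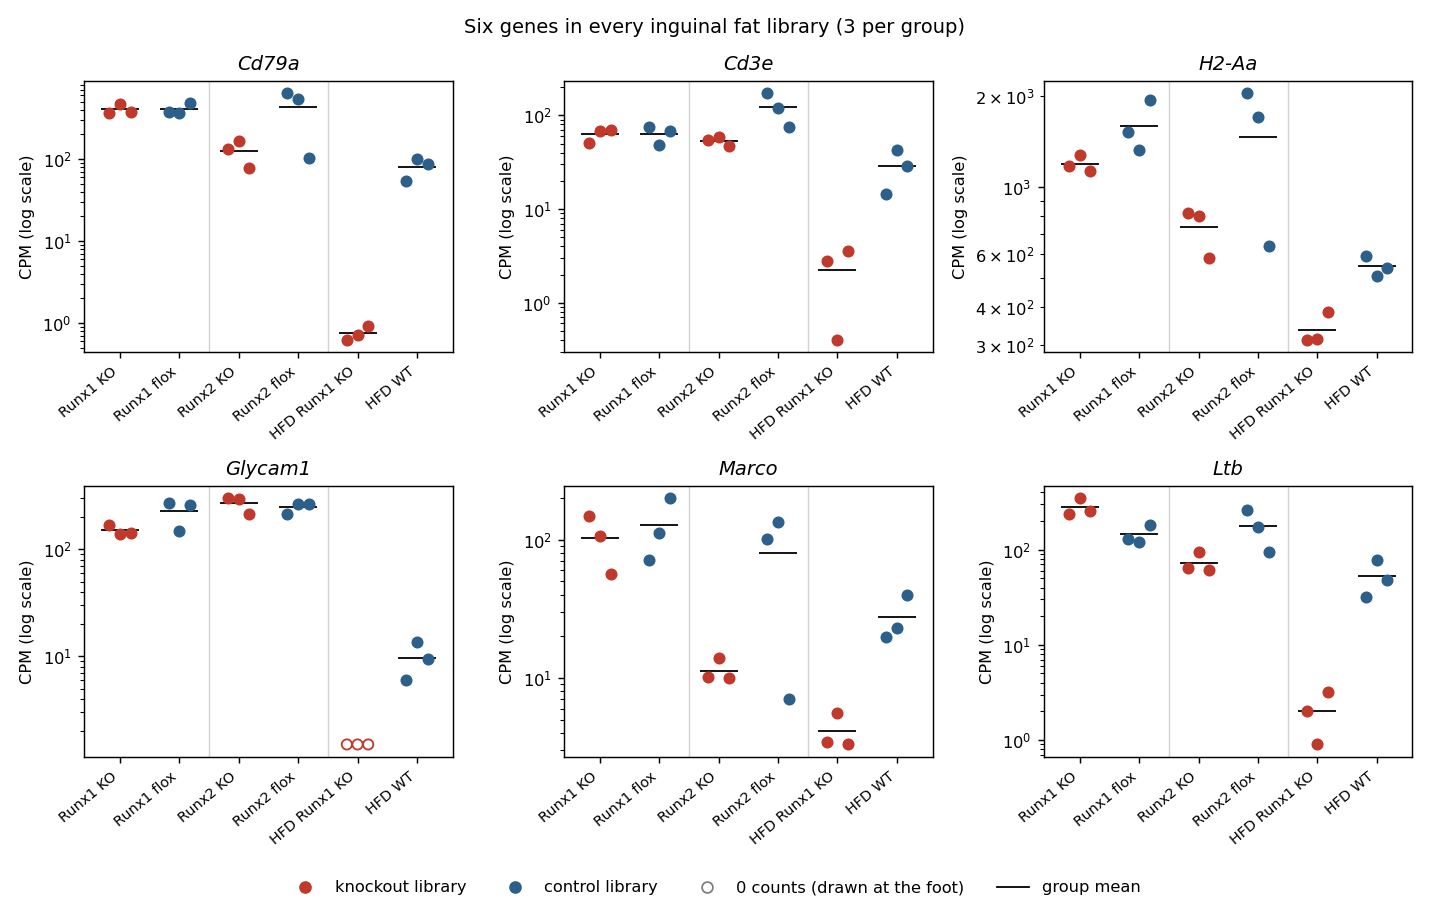
CPM on log axes of 6 genes in every inguinal fat library, with KO libraries in red, control libraries in blue, open circles for 0 counts and a bar at the mean of each group of 3. Cd79a, Cd3e, Glycam1, Marco and Ltb lie far lower in HFD Runx1 KO than in HFD WT fat, whereas the H2-Aa mean is 61.7% of the HFD WT mean, and 1 of the 3 Runx2 flox libraries sits with the Runx2 KO libraries in Cd79a, H2-Aa and Marco.

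The class II genes split in HFD fat. H2-Oa and H2-Ob encode H2-O, which tempers peptide loading and is made chiefly by B cells, and H2-DMa and H2-DMb2 encode H2-DM, which exchanges the peptides. H2-Ob had 1.65, 0.693 and 1.77 CPM in HFD Runx1 KO fat, against 22.8, 49.4 and 36.5 CPM in HFD WT fat (log2 -4.71, SE 0.37). H2-Oa had 0.0651, 0 and 0.325 CPM in HFD Runx1 KO fat, against 6.9, 11.3 and 10.8 CPM in HFD WT fat. H2-DMb2 had 1.21, 1.01 and 0.65 CPM in HFD Runx1 KO fat, against 30.01, 108 and 117 CPM in HFD WT fat (log2 -6.45, SE 0.46). H2-DMb2 has a near-identical neighbour, H2-DMb1, with which it may share reads, so its level is uncertain. The 3 genes H2-Ob, H2-Oa and H2-DMb2 were at 1.13 to 3.79% of their WT means, and no library of one group reached into the other. H2-DMa had 19.3, 24.4 and 21.3 CPM in HFD Runx1 KO fat, against 42.9, 52.7 and 46.6 CPM in HFD WT fat (log2 -1.13, SE 0.20, edgeR QL adjusted p = 0.012). H2-DMa thus stayed at 45.7% of the WT mean, and it was not called without HFD WT replicate 2 or 3 or HFD Runx1 KO replicate 1 (edgeR QL adjusted p = 0.063, 0.053 and 0.082).

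H2-Aa, H2-Ab1 and H2-Eb1 encode the chains of the classical class II molecules, and Cd74 the invariant chain that guides them to the endosome. H2-Aa had 312, 313 and 385 CPM in HFD Runx1 KO fat, against 590.5, 507 and 539.9 CPM in HFD WT fat (log2 -0.70, SE 0.22, edgeR QL adjusted p = 0.21). Cd74 had 496, 562 and 577 CPM in HFD Runx1 KO fat, against 881, 1093 and 1154 CPM in HFD WT fat (log2 -0.94, SE 0.23, edgeR QL adjusted p = 0.066). In both genes every KO library lay below every WT library, but neither passed the test. H2-Ab1 ranged from 216 to 330.0 CPM in HFD Runx1 KO fat, against 393 to 456 CPM in HFD WT fat. H2-Eb1 ranged from 246 to 321 CPM in HFD Runx1 KO fat, against 438 to 444 CPM in HFD WT fat. These 4 genes kept 52.3 to 62.9% of their WT means. The ratio of summed class II to summed B cell CPM was 35.1 to 87.6 in HFD Runx1 KO fat, against 3.72 to 8.81 in HFD WT fat.

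The promoters of 4 class II genes are shown because H2-Ob and H2-DMb2 fell in HFD fat while H2-Aa and H2-Eb1 were not called. Class II promoters are known for a shared set of boxes that assemble the RFX and NF-Y factors and the coactivator CIITA. NF-Y binds the letters ATTGG, or CCAAT on the other strand. Each line gives the 150 bases before the annotated start site from RefSeq (GRCm38.p6, a build other than the one the counts were made on), 5′ to 3′ on the gene's strand, with ATTGG or CCAAT in capitals.
H2-Ob (chr17:34238755-34238904, + strand): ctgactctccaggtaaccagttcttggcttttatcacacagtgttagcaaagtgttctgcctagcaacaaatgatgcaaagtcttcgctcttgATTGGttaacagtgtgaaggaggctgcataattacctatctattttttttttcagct
H2-DMb2 (chr17:34145099-34145248, + strand): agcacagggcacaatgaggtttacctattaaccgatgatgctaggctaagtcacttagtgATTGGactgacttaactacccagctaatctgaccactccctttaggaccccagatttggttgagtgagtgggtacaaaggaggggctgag
H2-Aa (chr17:34287824-34287973, - strand): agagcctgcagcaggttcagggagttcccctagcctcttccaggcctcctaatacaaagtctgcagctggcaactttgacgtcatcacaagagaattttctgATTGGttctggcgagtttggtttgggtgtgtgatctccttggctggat
H2-Eb1 (chr17:34305717-34305866, + strand): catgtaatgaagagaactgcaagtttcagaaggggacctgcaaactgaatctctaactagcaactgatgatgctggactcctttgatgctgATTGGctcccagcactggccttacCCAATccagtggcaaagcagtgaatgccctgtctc
ATTGG begins 57 bases before the start site in H2-Ob, 90 in H2-DMb2, 48 in H2-Aa and 59 in H2-Eb1, where CCAAT also begins 35 bases before it. The genes that fell and those not called thus share this stretch of letters. RefSeq windows running from 250 bases before to 50 after the start were matched for 28 of the 37 genes. Searched on both strands, ATTGG was in the windows of 11 of the 28 genes and in 37.4% of all 32851 windows. The RUNX letters TGTGGT were in those of 5 genes, namely Chst4, Fcer2a, H2-DMa, Lck and Tnfrsf13c, and in 16.8% of all windows. TGCGGT was in those of 4 genes, namely Cd5, Cd8a, H2-Oa and Tnfrsf13c, and in 6.45% of all windows. The octamer ATGCAAAT, known from immunoglobulin promoters, was in none of the 28 and in 1.74% of all windows. No match of one motif overlapped a match of another, and in Fcrla a pair of ATTGG matches, one on each strand, overlapped each other. A match is a description of the letters and not of binding.

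T cell genes fell as well, to between 3.06 and 17.0% of their WT means. The CD3 chains pass on the signal of the T cell receptor. Cd3e had 2.8, 0.405 and 3.57 CPM in HFD Runx1 KO fat, against 14.5, 43.1 and 28.5 CPM in HFD WT fat (log2 -3.66, SE 0.58, edgeR QL adjusted p = 0.011). Cd3d had 1.82, 0.289 and 2.3 CPM in HFD Runx1 KO fat, against 14.5, 18.5 and 9.39 CPM in HFD WT fat. Cd3g had 2.56, 0.578 and 2.6 CPM in HFD Runx1 KO fat, against 11.2, 25.6 and 13.4 CPM in HFD WT fat. In all 3 CD3 genes the second KO library was the lowest of the 6 and no KO library reached the WT range.

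Cd4 marks helper T cells, and Cd8a and Cd8b1 encode the chains of the coreceptor of cytotoxic T cells. Cd4 had 2.39, 1.88 and 3.31 CPM in HFD Runx1 KO fat, against 11.5, 40.6 and 28.9 CPM in HFD WT fat (log2 -3.42, SE 0.41). Cd8a had 3.23, 0.231 and 2.36 CPM in HFD Runx1 KO fat, against 17.4, 55.02 and 30.2 CPM in HFD WT fat (log2 -4.12, SE 0.63). Cd8b1 had 1.39, 0.0578 and 0.236 CPM in HFD Runx1 KO fat, against 9.95, 27.7 and 17.3 CPM in HFD WT fat (log2 -4.95, SE 0.72). KO libraries were again all lower, and they were more alike in Cd4 than in Cd8a and Cd8b1. Lck, the kinase bound to both coreceptors, had 3.66, 1.79 and 7.29 CPM in HFD Runx1 KO fat, against 25.1, 73.1 and 35.2 CPM in HFD WT fat. Cd2 had 3.17, 0.636 and 4.61 CPM in HFD Runx1 KO fat, against 13.9, 22.5 and 13.1 CPM in HFD WT fat. Cd5 had 0.239, 0.0867 and 1.62 CPM in HFD Runx1 KO fat, against 4.93, 21.8 and 9.78 CPM in HFD WT fat. Cd2 is an adhesion receptor of T cells and Cd5 a brake on their receptor, and both had their lowest level in the second KO library. The T cell calls leaned on single libraries. Only 3 of the 9 genes passed without HFD Runx1 KO replicate 1, 4 without HFD WT replicate 2 and 4 without HFD WT replicate 3, 8 without HFD Runx1 KO replicate 3 or HFD WT replicate 1, and all 9 without HFD Runx1 KO replicate 2.

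Ltb encodes lymphotoxin beta, by which lymphocytes organise lymph node stroma. Ltb had 2.00, 0.896 and 3.22 CPM in HFD Runx1 KO fat, against 31.6, 78.7 and 47.9 CPM in HFD WT fat (log2 -4.69, SE 0.42). Cd40, the receptor through which T cells help B cells and which dendritic cells and macrophages also carry, had 2.06, 2.74 and 2.13 CPM in HFD Runx1 KO fat, against 7.61, 10.7 and 8.21 CPM in HFD WT fat (log2 -1.94, SE 0.31). Cd40 missed the threshold without HFD Runx1 KO replicate 1 (edgeR QL adjusted p = 0.055), whereas Ltb was called in each of the 6 fits that left out 1 library. The groups did not overlap in either gene.

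Glycam1, a mucin-like ligand of L-selectin on high endothelial venules that mammary epithelium makes too, was not counted at all in the HFD Runx1 KO libraries. It had 0 counts in each of the 3, against 6.03, 13.6 and 9.46 CPM in HFD WT fat, or 1062 counts in all. Against a floor of 3 counts over the KO group, it was at least 370-fold lower if each count is a single fragment (edgeR QL adjusted p = 0.00011). Most low counts were even, so this bound may be too high. Chst4, the sulfotransferase that completes these ligands, had 0 counts in each KO library as well, against 0.62, 2.12 and 0.784 CPM in HFD WT fat. On the same assumption it was at least 44.9-fold lower, on 128 counts in the WT libraries. It was not called without HFD Runx1 KO replicate 1 (edgeR QL adjusted p = 0.068). Madcam1, an addressin of mucosal and some lymph node venules, had 0.13, 0.202 and 0.354 CPM in HFD Runx1 KO fat, against 1.07, 1.4 and 1.41 CPM in HFD WT fat (log2 -2.50, SE 0.60, edgeR QL adjusted p = 0.064). Its groups did not overlap, but its levels were low in both and it did not pass.

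Cd209b, a lectin of marginal zone and lymph node sinus macrophages, had 6.4, 4.42 and 7.32 CPM in HFD Runx1 KO fat, against 27.2, 29.6 and 43.5 CPM in HFD WT fat (log2 -2.47, SE 0.27). Marco, a scavenger receptor of the same macrophages, had 3.47, 5.61 and 3.31 CPM in HFD Runx1 KO fat, against 19.7, 22.8 and 39.9 CPM in HFD WT fat (log2 -2.74, SE 0.32). Both kept 15.02 to 18.08% of their WT means and were called in each of the 6 fits that left out 1 library. Unlike Glycam1 and Chst4, they were counted in every KO library.

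**Figure D3:**
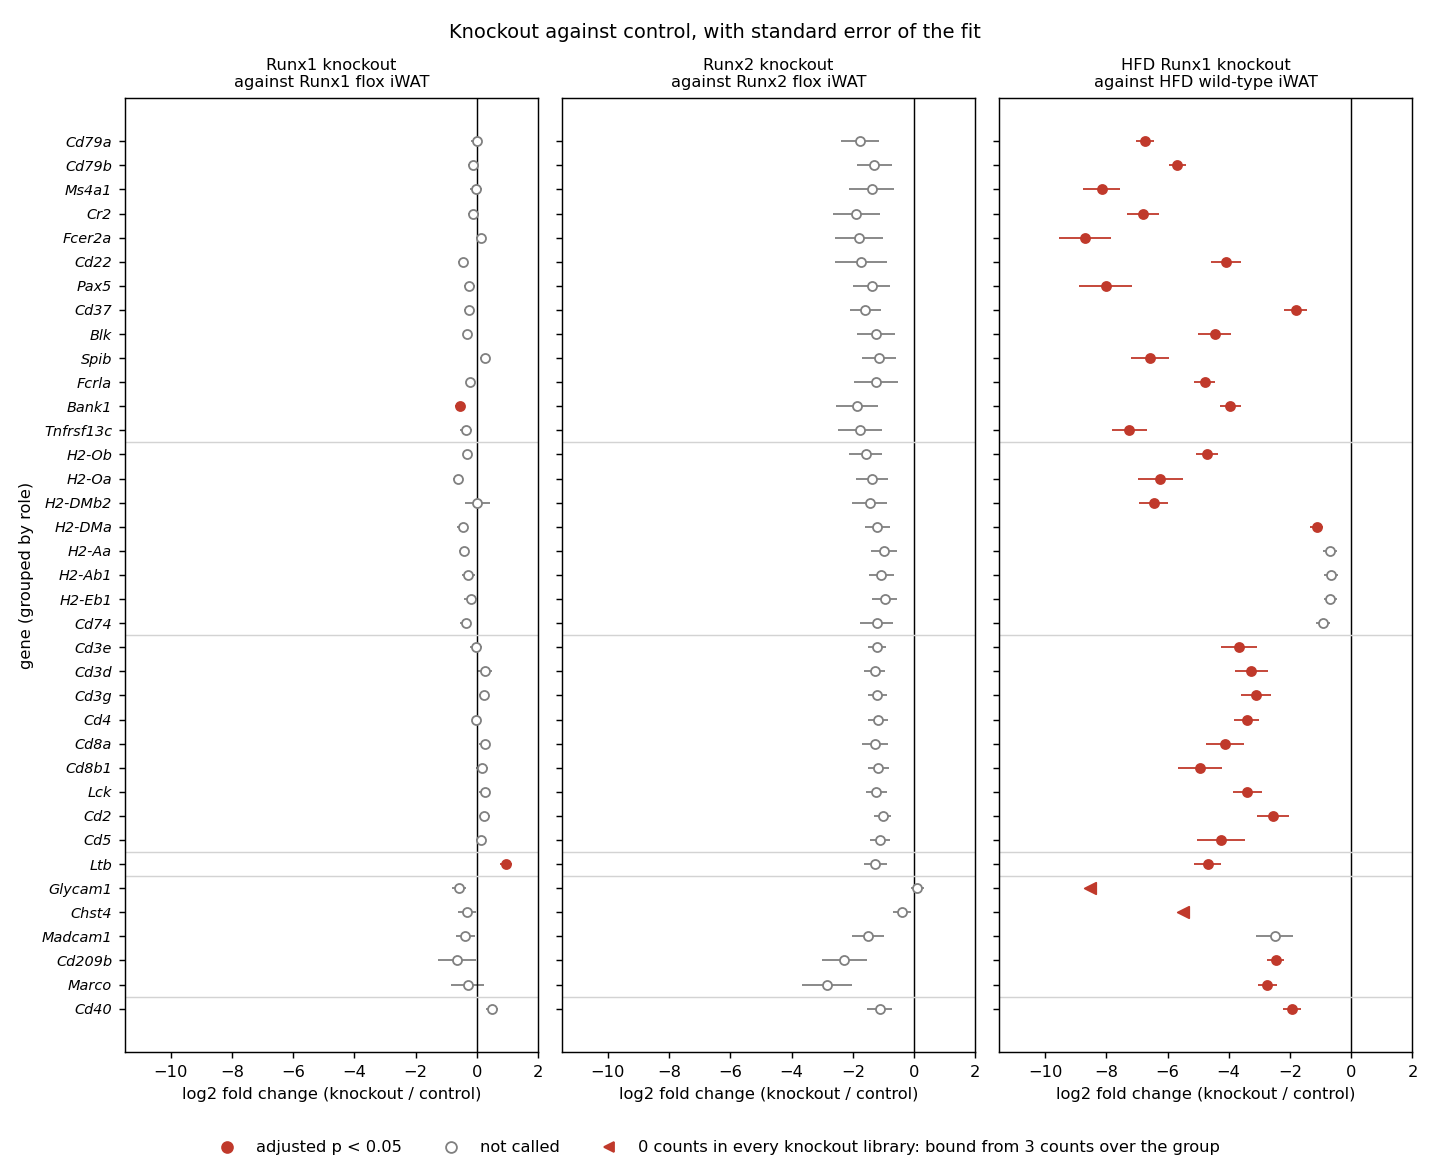
Log2 fold change of each of the 37 genes, KO over control, with the standard error of the fit, in Runx1, Runx2 and HFD Runx1 KO fat. Filled red points passed an adjusted p of 0.05, open grey points did not, and red triangles mark Glycam1 and Chst4, whose bound rests on 3 counts over the KO group. In HFD fat 32 of the 37 are filled and lie left of 0, whereas 2 are filled in Runx1 KO fat and none in Runx2 KO fat.

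Lists of genes outside the 37 were read in HFD fat as well, where 2.07% of all genes tested were called lower. Of 18 other B cell genes 11 were called lower. Of 19 other T cell genes 16 were called lower, among them Ccr7, the receptor that guides T and dendritic cells into the node, with 2.02, 1.16 and 0.59 CPM in HFD Runx1 KO fat, against 14.7, 54.6 and 26.3 CPM in HFD WT fat. Of 11 lymph node stroma genes 8 were tested and 1 fell, Cxcl13, the chemokine that draws B cells into follicles, with 1.04, 1.27 and 2.6 CPM in HFD Runx1 KO fat, against 27.7, 59.6 and 47.5 CPM in HFD WT fat. The other stroma genes were not called, and Ccl19 and Ccl21a, the chemokines of the T cell zone, were listed at 0 in all libraries. Both are known to have near-identical copies. Why they had 0 counts was not tested, and nothing is read from them.

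Of 9 dendritic cell genes 3 were called lower, namely Flt3, Ccl22 and Siglech (log2 -2.72, -3.68 and -2.85). Of 8 plasma cell genes 1 fell, Mzb1 (log2 -6.14). Of 12 sinus and tissue macrophage genes 2 fell, Cd5l (log2 -3.66) and Marco, which is one of the 37 as well. Summed over that list, the level was 906 to 1859 CPM in HFD Runx1 KO fat, against 934 to 1541 CPM in HFD WT fat. None of 10 natural killer and cytotoxic genes, 8 tested lymphatic endothelial genes, 7 blood endothelial genes, 10 adipocyte genes, 6 tested skeletal muscle genes or 2 tested mammary and keratin genes was called in HFD fat. The adipocyte sum was 32188 to 38603 CPM in HFD Runx1 KO fat, against 29016 to 44312 CPM in HFD WT fat. The blood endothelial sum was 1615 to 1838 CPM in HFD Runx1 KO fat, against 1237 to 1631 CPM in HFD WT fat. The lymphatic endothelial sum was 43.02 to 52.2 CPM in HFD Runx1 KO fat, against 51.5 to 70.3 CPM in HFD WT fat.

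Other macrophage genes gave no call. C1qb, a complement chain of tissue macrophages, had 106, 218 and 134 CPM in HFD Runx1 KO fat, against 168, 82.3 and 159.8 CPM in HFD WT fat (log2 0.16, SE 0.32). Lyz2, a lysozyme of myeloid cells, had 412, 734 and 342 CPM in HFD Runx1 KO fat, against 779, 480.1 and 543 CPM in HFD WT fat (log2 -0.28, SE 0.31). The groups overlapped in both genes. How far lymph node tissue taken with the fat, as against lymphocytes within it, accounts for the fall of the 32 genes was not tested.

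The authors' deposited table for HFD fat lists 403 genes, of which 385 are lower and 18 higher in the knockouts. Its genes have adjusted p-values up to 0.00992 and log2 fold changes of at least 1.02 in size, by the authors' deposited table. It holds 31 of the 37 genes, all lower, which is 83.8% of the 37 and 7.69% of that list, where the count tables hold 26264 genes in all. The list was made from the same HFD comparison, and the 37 were chosen with earlier results of these data known. The overlap is therefore no independent support. The 6 it does not hold are Cd5, which was called lower here, and the 5 genes not called here. Cd79a has the lowest adjusted p of the authors' deposited table, with a log2 fold change of -6.73 there.

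In Runx2 KO fat 36 of the 37 genes had a fold change below 0, but no gene passed the test. Of the 15574 genes tested 0 were called (0.0%) by edgeR's quasi-likelihood test, while 3206 (20.6%) had an unadjusted p under 0.05, among them 25 of the 37. DESeq2 called 1039 genes, 14 of them among the 37 and all 14 lower. The median log2 fold change of the 37 genes was -1.27, where that of all genes was -0.041. The controls did not hold together, and Runx2 flox replicate 3 had 6.05 to 110% of the mean of replicates 1 and 2 over the 37 genes. It lay within the range of the KO libraries in 22 of the 37 genes, below it in 8 and above it in 7. That split was not counted over all genes, so nothing particular to the 37 is read from it.

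The B cell genes show the split best. Cd79a had 133, 164 and 77.03 CPM in Runx2 KO fat, against 632, 539.7 and 103 CPM in Runx2 flox fat (log2 -1.77, SE 0.61, edgeR QL adjusted p = 0.22). Cd79b had 105, 113 and 53.5 CPM in Runx2 KO fat, against 293, 312 and 61.2 CPM in Runx2 flox fat. Ms4a1 had 26.4, 48.4 and 17.2 CPM in Runx2 KO fat, against 113, 116 and 12.1 CPM in Runx2 flox fat. Replicates 1 and 2 of the controls were high, and replicate 3 was as low as the KO libraries or lower. Cr2 had 10.7, 18.2 and 7.28 CPM in Runx2 KO fat, against 66.1, 62.7 and 5.77 CPM in Runx2 flox fat (log2 -1.89, SE 0.77). Fcer2a had 28.5, 35.5 and 11.6 CPM in Runx2 KO fat, against 111, 141 and 11.3 CPM in Runx2 flox fat. Cd22 had 60.1, 83.01 and 22.5 CPM in Runx2 KO fat, against 204, 323 and 21.8 CPM in Runx2 flox fat. In these 3 genes the third control library was the lowest of all 6. Pax5 had 63.3, 88.6 and 40.6 CPM in Runx2 KO fat, against 226, 236 and 42.3 CPM in Runx2 flox fat. Spib had 34.4, 51.9 and 22.5 CPM in Runx2 KO fat, against 109, 110.0 and 23.3 CPM in Runx2 flox fat. Cd37 had 97.7, 97.8 and 62.3 CPM in Runx2 KO fat, against 358, 333 and 83.5 CPM in Runx2 flox fat. The third control library lay within the KO range in each of these.

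Blk had 20.5, 33.9 and 12.7 CPM in Runx2 KO fat, against 66.7, 78.9 and 13.96 CPM in Runx2 flox fat. Fcrla had 21.8, 27.3 and 10.2 CPM in Runx2 KO fat, against 61.1, 71.3 and 8.19 CPM in Runx2 flox fat. Bank1 had 20.8, 23.6 and 10.7 CPM in Runx2 KO fat, against 91.4, 99.5 and 11.9 CPM in Runx2 flox fat. Control replicate 3 was again near or below the lowest KO library. Tnfrsf13c had 12.8, 16.9 and 6.59 CPM in Runx2 KO fat, against 50.8, 65.8 and 6.56 CPM in Runx2 flox fat. For the 13 B cell genes, replicate 3 of the controls had 8.29 to 24.2% of the mean of replicates 1 and 2, with a median of 12.4%. No B cell gene kept its groups apart.

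Class II genes were also highest in control replicates 1 and 2. H2-Ob had 69.6, 81.5 and 47.9 CPM in Runx2 KO fat, against 274, 266 and 56.3 CPM in Runx2 flox fat (log2 -1.58, SE 0.54). H2-Oa had 24.3, 22.8 and 13.8 CPM in Runx2 KO fat, against 71.01, 71.2 and 15.9 CPM in Runx2 flox fat. H2-DMb2 had 76.9, 98.2 and 49.98 CPM in Runx2 KO fat, against 298, 262 and 55.4 CPM in Runx2 flox fat. Each KO library was below control replicates 1 and 2, and control replicate 3 lay within the KO range. H2-DMa had 66.4, 66.5 and 45.6 CPM in Runx2 KO fat, against 191, 162 and 57.4 CPM in Runx2 flox fat. H2-Aa had 820.2, 804 and 582 CPM in Runx2 KO fat, against 2045, 1713 and 638 CPM in Runx2 flox fat (log2 -0.99, SE 0.43). Cd74 had 1641, 1585 and 906 CPM in Runx2 KO fat, against 4421, 4201 and 1019 CPM in Runx2 flox fat. H2-Ab1 ranged from 468 to 692 CPM in Runx2 KO fat, against 560.0 to 1769 CPM in Runx2 flox fat, and H2-Eb1 from 506 to 716 CPM in Runx2 KO fat, against 575 to 1687 CPM in Runx2 flox fat. The third control library had 19.8 to 36.9% of the mean of the other control libraries over the 8 class II genes.

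T cell genes were the ones in which the KO libraries lay below all 3 controls. This held for 7 of the 9 T cell genes and for none of the other 28, where 11.0% of all genes tested had all KO libraries below all controls. Cd3e had 54.3, 58.4 and 47.4 CPM in Runx2 KO fat, against 172, 119.8 and 76.03 CPM in Runx2 flox fat (log2 -1.20, SE 0.29, edgeR QL adjusted p = 0.22). Cd3d had 36.6, 44.7 and 53.8 CPM in Runx2 KO fat, against 173, 83.4 and 73.6 CPM in Runx2 flox fat. Cd3g had 46.6, 61.2 and 57.6 CPM in Runx2 KO fat, against 187, 109 and 83.8 CPM in Runx2 flox fat. The third control library was again the lowest control, but it stood above the KO libraries in all 3 CD3 genes. Cd4 had 54.5, 64.6 and 47.5 CPM in Runx2 KO fat, against 159, 147 and 67.97 CPM in Runx2 flox fat (log2 -1.17, SE 0.32). Cd8a had 34.8, 68.98 and 42.9 CPM in Runx2 KO fat, against 173, 125 and 56.5 CPM in Runx2 flox fat. Cd8b1 had 35.99, 47.7 and 38.6 CPM in Runx2 KO fat, against 136, 85.6 and 52.4 CPM in Runx2 flox fat. Cd8a was an exception, with the second KO library above the third control. Lck had 89.5, 109 and 74.9 CPM in Runx2 KO fat, against 296, 227 and 118 CPM in Runx2 flox fat. Cd2 had 49.4, 63.9 and 50.5 CPM in Runx2 KO fat, against 147, 119 and 68.3 CPM in Runx2 flox fat. Cd5 had 24.3, 31.9 and 21.6 CPM in Runx2 KO fat, against 72.1, 65.01 and 31.6 CPM in Runx2 flox fat. Cd5 overlapped by 1 library, and Lck and Cd2 did not overlap. The third control library had 37.9 to 57.3% of the mean of the other control libraries over the 9 T cell genes, with a median of 47.3%, against 12.4% over the B cell genes.

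Ltb had 63.6, 94.6 and 61.5 CPM in Runx2 KO fat, against 259.8, 174 and 94.5 CPM in Runx2 flox fat (log2 -1.27, SE 0.37). Cd40 had 12.6, 15.5 and 11.3 CPM in Runx2 KO fat, against 45.8, 27.6 and 12.8 CPM in Runx2 flox fat. In both, the third control library fell into the KO range. Glycam1 had 299, 293 and 215 CPM in Runx2 KO fat, against 216, 267 and 265 CPM in Runx2 flox fat (log2 0.11, SE 0.21). Glycam1 was the only one of the 37 with a fold change above 0, and its 6 libraries were close to each other. Chst4 had 6.3, 5.54 and 3.85 CPM in Runx2 KO fat, against 7.7, 7.91 and 4.93 CPM in Runx2 flox fat. Madcam1 had 1.91, 1.94 and 1.8 CPM in Runx2 KO fat, against 7.94, 6.45 and 1.63 CPM in Runx2 flox fat. Chst4 overlapped between groups, whereas Madcam1 was high in the first and second control libraries only. Cd209b had 12.1, 17.997 and 8.48 CPM in Runx2 KO fat, against 66.1, 112 and 9.1 CPM in Runx2 flox fat (log2 -2.28, SE 0.74). Marco had 10.1, 13.9 and 9.96 CPM in Runx2 KO fat, against 101, 134 and 7.09 CPM in Runx2 flox fat (log2 -2.83, SE 0.82, edgeR QL adjusted p = 0.22). Marco had the widest gap of the 37 between control libraries, with replicate 3 at 6.05% of the mean of the others, and Cd209b had 10.2%.

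The venule gene and the lymphocyte genes therefore did not keep one ratio in these libraries. The ratio of Glycam1 to Cd79a CPM was 1.79 to 2.78 in Runx2 KO fat, against 0.341, 0.495 and 2.56 in the Runx2 flox libraries. The ratio of summed B cell to summed T cell CPM was 0.815 to 1.49 in Runx2 KO fat, against 1.57, 2.30 and 0.646 in the Runx2 flox libraries. Control replicate 3 thus had the lowest B to T ratio of the 6. Adipocyte genes ran the other way, with sums of 44675, 39005 and 47704 CPM in Runx2 KO fat, against 14254, 17383 and 38116 CPM in Runx2 flox fat. Skeletal muscle genes summed to 141, 534 and 386 CPM in Runx2 KO fat, against 53.1, 80.3 and 8915 CPM in Runx2 flox fat, so that only control replicate 3 was rich in them. Mammary and keratin genes were scarce, with sums of 5.65 to 5.82 CPM in Runx2 KO fat, against 8.65 to 12.6 CPM in Runx2 flox fat. What part tissue makeup had in the values of the 37 genes was not tested.

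**Figure D4:**
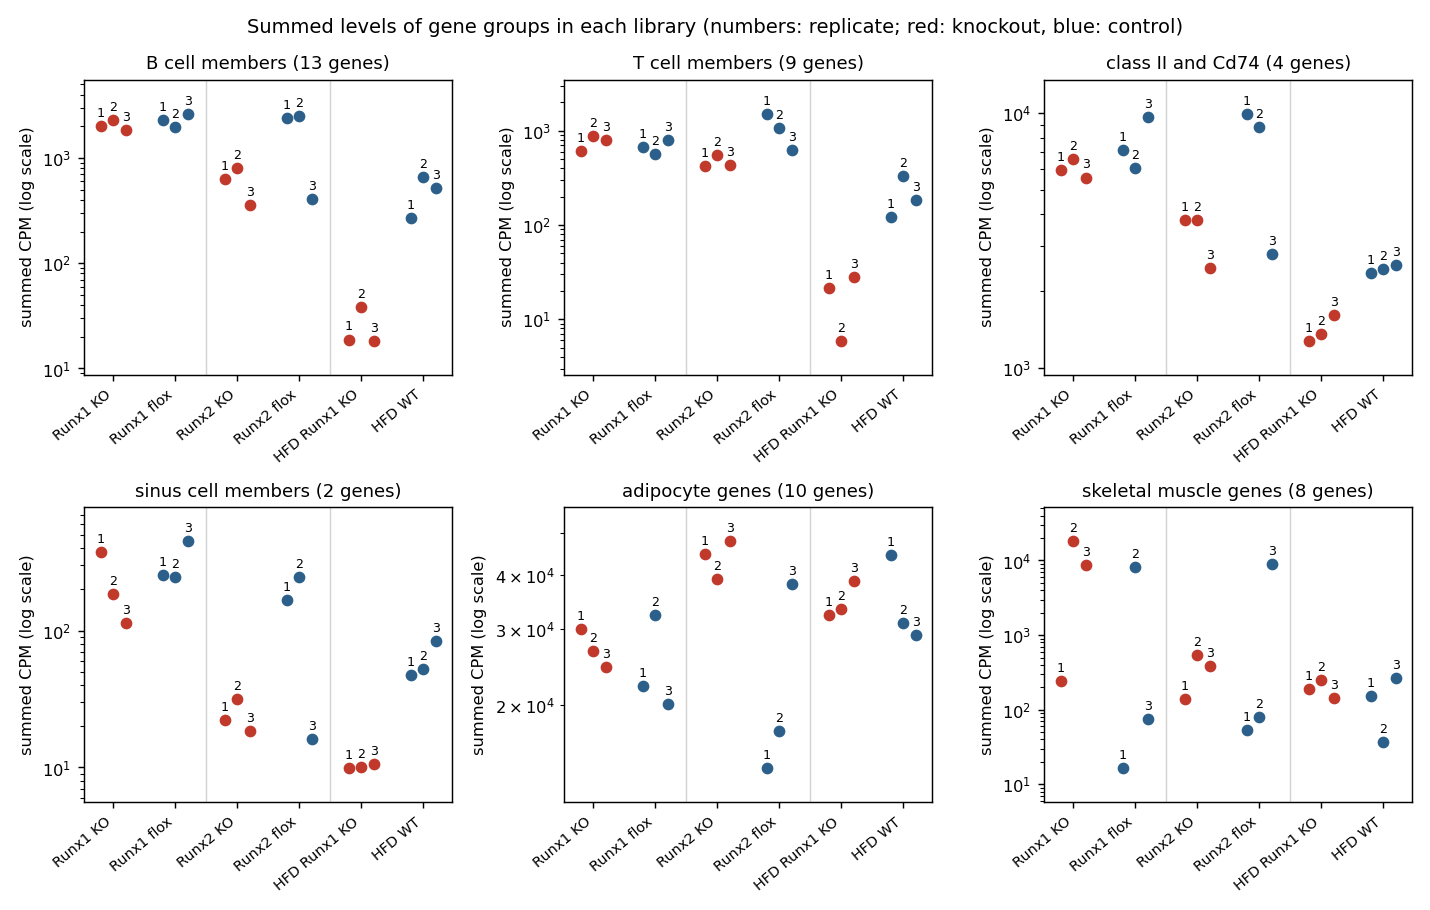
Summed CPM on log axes of 13 B cell, 9 T cell, 4 class II (H2-Aa, H2-Ab1, H2-Eb1 and Cd74) and 2 sinus genes (Cd209b and Marco) of the 37, and of 10 adipocyte and 8 skeletal muscle genes, in each library, numbered by replicate, KO in red and control in blue. Runx2 flox replicate 3 lies near the Runx2 KO libraries in the B cell, class II and sinus panels and is high in the adipocyte and muscle panels.

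The result of this comparison rested on which control libraries were kept. Without Runx2 flox replicate 3, 35 of the 37 genes were called lower, all but Glycam1 and Chst4, together with 6354 genes in all. In that fit 3037 of the 15875 genes tested were called lower and 3317 higher. Without Runx2 flox replicates 1 and 2, an alternative chosen after seeing the data, the median of the 37 was 0.21 and 10 of the 37 had a fold change below 0, with 135 genes called and none of the 37. That fit has 1 control library, which is assumed to vary like the KO libraries. With all libraries, 0 of the 15574 genes tested were called, so the 12 lists outside the 37 could hold no call and nothing is read from them.

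In Runx1 KO fat 2 of the 37 genes were called. Of the 37, 1 was called higher and 1 lower, where 4.45% and 3.03% of the 15896 genes tested were called higher and lower, 7.48% in all. Ltb rose and Bank1 fell. The median log2 fold change of the 37 genes was -0.21, where that of all genes was -0.0037, and without Runx1 flox replicate 3 it was 0.018. An unadjusted p under 0.05 was reached by 9 of the 37 and by 25.1% of all genes. The KO libraries lay below all controls in 6 of the 37 genes and above them in 1, where 14.1% and 17.3% of all genes tested did so.

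Ltb had 236, 348 and 257 CPM in Runx1 KO fat, against 129, 122 and 184 CPM in Runx1 flox fat (log2 0.95, SE 0.20, edgeR QL adjusted p = 0.022). Every KO library was above every control library, and the KO mean was 194% of the control mean. Ltb was not called without Runx1 KO replicate 2 or 3 or Runx1 flox replicate 1 (log2 0.77, 1.01 and 0.87, edgeR QL adjusted p = 0.12, 0.057 and 0.063). Bank1 had 69.7, 58.05 and 48.5 CPM in Runx1 KO fat, against 84.1, 79.6 and 96.7 CPM in Runx1 flox fat (log2 -0.56, SE 0.15, edgeR QL adjusted p = 0.048). Its groups did not overlap either, and it was called only without Runx1 flox replicate 2 among the fits that left out 1 library (edgeR QL adjusted p = 0.051 to 0.19 in the other 5).

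The other B cell genes did not pass. Cd79a had 364, 468 and 375 CPM in Runx1 KO fat, against 375, 362 and 478 CPM in Runx1 flox fat (log2 -0.01, SE 0.17). Cd79b had 373, 456 and 355 CPM in Runx1 KO fat, against 476, 359.5 and 459.5 CPM in Runx1 flox fat. Ms4a1 had 147, 136 and 115 CPM in Runx1 KO fat, against 164, 96.6 and 145 CPM in Runx1 flox fat. Their groups overlapped and their means differed by less than 10%. Cr2 had 67.1, 55.4 and 48.1 CPM in Runx1 KO fat, against 54.9, 54.1 and 76.1 CPM in Runx1 flox fat. Fcer2a had 132, 129 and 102 CPM in Runx1 KO fat, against 97.7, 97.9 and 138 CPM in Runx1 flox fat. Cd22 had 187, 192 and 171 CPM in Runx1 KO fat, against 224, 233 and 298 CPM in Runx1 flox fat (log2 -0.45, SE 0.15, edgeR QL adjusted p = 0.085). Cd22 kept its groups apart without passing, while Cr2 and Fcer2a overlapped. Pax5 had 174, 231 and 167 CPM in Runx1 KO fat, against 229, 186 and 266 CPM in Runx1 flox fat. Cd37 had 212, 239 and 215 CPM in Runx1 KO fat, against 256, 229 and 321 CPM in Runx1 flox fat. Spib had 129.5, 119 and 101 CPM in Runx1 KO fat, against 99.4, 83.3 and 111 CPM in Runx1 flox fat. All 3 overlapped, Spib with the higher mean in KO fat. Blk had 68.1, 81.3 and 56.4 CPM in Runx1 KO fat, against 86.7, 82.7 and 87.6 CPM in Runx1 flox fat. Fcrla had 59.9, 65.1 and 60.02 CPM in Runx1 KO fat, against 74.7, 62.3 and 80.7 CPM in Runx1 flox fat. Tnfrsf13c had 49.9, 57.1 and 40.9 CPM in Runx1 KO fat, against 66.97, 45.7 and 76.2 CPM in Runx1 flox fat. Of these 3, Blk alone had every KO library below every control.

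Class II genes had a median log2 fold change of -0.34, with none of the 8 called. H2-Ob had 199, 227 and 194 CPM in Runx1 KO fat, against 236, 237 and 296 CPM in Runx1 flox fat. H2-Oa had 38.3, 38.2 and 33.7 CPM in Runx1 KO fat, against 50.8, 46.7 and 72.2 CPM in Runx1 flox fat (log2 -0.62, SE 0.17, edgeR QL adjusted p = 0.052). H2-DMb2 had 320.1, 346 and 139.6 CPM in Runx1 KO fat, against 357, 174 and 270.0 CPM in Runx1 flox fat (log2 0.01, SE 0.41). H2-DMb2 varied more within each group than between them, and H2-Oa and H2-Ob did not overlap. H2-DMa had 114, 131 and 95.8 CPM in Runx1 KO fat, against 153, 123 and 196 CPM in Runx1 flox fat. H2-Aa had 1175, 1277 and 1133 CPM in Runx1 KO fat, against 1519.7, 1330.0 and 1938 CPM in Runx1 flox fat. Cd74 had 2726, 2919.5 and 2516 CPM in Runx1 KO fat, against 3507, 2734 and 4288 CPM in Runx1 flox fat. H2-Aa was lower in every KO library, Cd74 and H2-DMa overlapped, and Runx1 flox replicate 3 was the highest library in all 3. H2-Ab1 ranged from 909 to 1122 CPM in Runx1 KO fat, against 993 to 1665 CPM in Runx1 flox fat, and H2-Eb1 from 1021 to 1258 CPM in Runx1 KO fat, against 1032 to 1772 CPM in Runx1 flox fat.

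T cell genes had a median log2 fold change of 0.22, with none of the 9 called and all 9 overlapping. Cd3e had 50.9, 67.4 and 69.8 CPM in Runx1 KO fat, against 74.9, 48.5 and 68.6 CPM in Runx1 flox fat. Cd3d had 56.8, 99.1 and 85.8 CPM in Runx1 KO fat, against 64.99, 51.5 and 84.8 CPM in Runx1 flox fat. Cd3g had 66.5, 94.4 and 70.2 CPM in Runx1 KO fat, against 69.6, 55.8 and 73.1 CPM in Runx1 flox fat. The first KO library and the second control library were the lowest of their groups in each CD3 gene. Cd4 had 92.1, 98.8 and 102 CPM in Runx1 KO fat, against 101, 79.8 and 115 CPM in Runx1 flox fat. Cd8a had 72.7, 109.8 and 105 CPM in Runx1 KO fat, against 76.8, 66.97 and 96.4 CPM in Runx1 flox fat. Cd8b1 had 56.8, 87.1 and 77.6 CPM in Runx1 KO fat, against 66.6, 52.3 and 79.3 CPM in Runx1 flox fat. Cd8a and Cd8b1 had the higher mean in KO fat, within the spread of the libraries. Lck had 112, 174 and 161 CPM in Runx1 KO fat, against 109.8, 113 and 152 CPM in Runx1 flox fat. Cd2 had 71.7, 102 and 79.7 CPM in Runx1 KO fat, against 65.4, 61.5 and 87.5 CPM in Runx1 flox fat. Cd5 had 36.5, 55.4 and 48.3 CPM in Runx1 KO fat, against 47.3, 34.96 and 45.6 CPM in Runx1 flox fat. These 3 overlapped as well.

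Vessel and sinus genes did not pass either. Glycam1 had 170.0, 139.8 and 141 CPM in Runx1 KO fat, against 272, 147 and 258 CPM in Runx1 flox fat (log2 -0.59, SE 0.22, edgeR QL adjusted p = 0.13). Chst4 had 5.01, 5.67 and 3.69 CPM in Runx1 KO fat, against 4.91, 5.39 and 7.66 CPM in Runx1 flox fat. Madcam1 had 2.5, 3.15 and 3.82 CPM in Runx1 KO fat, against 3.62, 3.5 and 5.2 CPM in Runx1 flox fat. All 3 had lower means in KO fat and overlapped, and Glycam1 was called lower without Runx1 flox replicate 2 (log2 -0.83, edgeR QL adjusted p = 0.014). Cd209b had 224, 79.7 and 56.7 CPM in Runx1 KO fat, against 184, 133 and 248 CPM in Runx1 flox fat (log2 -0.65, SE 0.62). Marco had 148, 106 and 56.6 CPM in Runx1 KO fat, against 71.3, 111 and 199 CPM in Runx1 flox fat. Cd40 had 25.4, 37.3 and 28.9 CPM in Runx1 KO fat, against 22.2, 16.9 and 25.4 CPM in Runx1 flox fat. Cd209b and Marco varied several-fold within the KO group, Cd40 had the higher mean in KO fat, and Cd209b was called lower without Runx1 KO replicate 1 (log2 -1.46, edgeR QL adjusted p = 0.044). Skeletal muscle genes summed to 243, 17999 and 8702 CPM in Runx1 KO fat, against 16.4, 8098 and 75.7 CPM in Runx1 flox fat, and their part in the values above was not tested.

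Outside the 37, 1 further B cell gene moved far more than any B cell gene among them. Btla, an inhibitory receptor of B and T cells, fell to 143, 148 and 136 CPM in Runx1 KO fat, against 442, 382 and 497 CPM in Runx1 flox fat (log2 -1.63, SE 0.14, edgeR QL adjusted p = 0.00071). Its groups were far apart. Of 18 other B cell genes 2 fell, the other being Ebf1 (log2 -0.51), an early B cell factor that adipocytes express too. Of 19 other T cell genes 1 fell, Il7r (log2 -0.69), and of 7 tested plasma cell genes 1 fell, Irf4. Irf4, which adipocytes also make, had 41.9, 42.6 and 56.3 CPM in Runx1 KO fat, against 424, 1321 and 314 CPM in Runx1 flox fat (log2 -3.87, SE 0.61). Of 10 natural killer and cytotoxic genes 1 rose, Tbx21 (log2 1.45), and of 9 tested lymph node stroma genes 1 rose, Ltbr (log2 0.58), the receptor of lymphotoxin. Of 11 tested macrophage genes 1 fell, Mrc1 (log2 -1.07), of 7 blood endothelial genes 2 fell, Kdr and Cldn5 (log2 -0.99 and -1.33), and of 10 adipocyte genes 1 rose, Slc2a4 (log2 0.97). No lymphatic endothelial, dendritic cell, mammary and keratin or skeletal muscle gene was called there. Over all genes 3.03% were called lower and 4.45% higher, and nothing is read from counts of 1 or 2 in lists of this size. The genes named here outside the 37 were in part chosen after their values were seen.

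The knockout effects were then set against each other in fits of joined tables, where the table cannot be told apart from the condition. The effect in HFD fat was lower than that of the Runx1 knockout in the other fat for 29 of the 37 genes and higher for 0, where 3.3% and 1.1% of the 16361 genes tested were called lower and higher. The differences were log2 -6.74 for Cd79a (SE 0.33, edgeR QL adjusted p = 1.1e-07), -3.42 for Cd4 (SE 0.48) and -5.67 for Ltb (SE 0.54). The 8 genes without a call were Cd37, H2-DMa, H2-Aa, H2-Ab1, H2-Eb1, Cd74, Madcam1 and Cd209b. The count lay between 23 and 28 in the 12 fits that left out 1 library. The Runx2 effect differed from the Runx1 effect in 1 of the 37 genes, Ltb (log2 -2.20, SE 0.46, edgeR QL adjusted p = 0.042), where 0.573% and 1.01% of the 16416 genes tested were called lower and higher. Ltb was not called there in 9 of 12 fits that left out 1 library (edgeR QL adjusted p = 0.057 to 0.14). Without Runx2 flox replicate 3 the count was 34 of the 37, all lower. In that fit 1885 of the 16744 genes tested were called lower and 2288 higher. Both contrasts use the Runx1 libraries, so they are not independent of each other.

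The 37 genes were also read in mature brown adipocytes of the cell line BAT, which hold no lymph node. These cells are not the white adipocytes of inguinal fat. In the 25 culture libraries 31 of the 37 genes stayed under 1 CPM throughout, and Ms4a1 and Cd2 had 0 counts in all. The libraries fall into 9 groups, whose labels read OEV, OE Runx1, OE Runx2, knock out control, knock out Runx1, knock out Runx2, double knock out, full length Runx2 and delete Runx2 IDR, with 2 libraries in each of the last 2 and 3 in each of the others. Cd74 ranged from 3.60 to 62.7 CPM over the 25 libraries, with group means of 16.9 ± 1.86 CPM in OE Runx1, 11.4 ± 2.11 CPM in OE Runx2 and 47.2 ± 6.14 CPM in OEV cultures (SD, n = 3 each). H2-DMa ranged from 2.00 to 10.4 CPM. Lck averaged 1.76 ± 0.43 CPM in OE Runx2 and 0.1001 ± 0.0342 CPM in OEV cultures (SD, n = 3 each), without overlap. The levels of Cd74 and Lck thus differed between culture groups, and these differences were not tested here. H2-Aa reached 0.749 CPM at most, where HFD Runx1 KO fat had 312 to 385 CPM. All 3 HFD Runx1 KO libraries lay above every culture library in 24 of the 37 genes. Tnfrsf13c ran the other way, with 0.177 to 1.30 CPM in the cultures and 0.059 to 0.173 CPM in HFD Runx1 KO fat. Cd79a had at most 0.296 CPM in the cultures, and 0.629 to 0.915 CPM in HFD Runx1 KO fat. The cultures were scaled in tables of their own, so these levels are set side by side without a test. The counts of 31 and of 24 genes were not made over all genes, so they do not mark out the 37.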

How the data were processed

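Total polyA RNA of mouse fat and of mature brown adipocytes was sequenced, and the authors deposited raw counts per gene for 43 libraries in 6 tables of 26264 genes. Per the submitters' processing notes, fastp, STAR and featureCounts were used with the mm39 build, and their versions are not given in the sources used here. The authors' deposited table for HFD fat also holds a log2 fold change and an adjusted p-value per gene, which were used only where it is named. Another 10 columns of per-sample values matched no labelled library and were left out.

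The 37 genes and all gene lists were chosen with earlier results of these data known. The 18 inguinal libraries were grouped by their labels, 3 per group. Each of the 3 tables was fitted alone in edgeR 4.0.16 (R 4.3.3), with filterByExpr, TMM scaling, a robust quasi-likelihood fit and Benjamini-Hochberg adjustment over all genes tested, and a call needed an adjusted p under 0.05. Differences of effects were contrasts in joined tables. CPM is the count over the TMM-scaled library size, and fold changes come from the fit. Bounds use a floor of 3 counts over the group, which covers counting error only, and that only if each count is a single fragment. Of counts from 1 to 19, 72.99 to 81.92% were even, so single counts may not stand for single fragments, and whether they do was not tested. Values of all but H2-Ab1 and H2-Eb1, which are given by range, were to be printed per library. The alternatives were DESeq2 1.42.0 size factors and its test, no count filter, a replicate block and leaving out single libraries. Tables were made with Python 3.11.15 and pandas 2.3.3, and figures with matplotlib 3.10.9. Promoter windows came from RefSeq on GRCm38.p6.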

Additional observations from a re-analysis of the deposited data

Results flagged for a closer look

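The effects of the knockouts differed between tables, by a test of the difference itself, in genes of every role. For HFD Runx1 KO minus Runx1 KO effects, the log2 differences in B cell genes were -6.74 for Cd79a, -8.13 for Ms4a1, -6.72 for Cr2, -8.83 for Fcer2a and -3.64 for Cd22. In class II genes they were -4.42 for H2-Ob and -6.48 for H2-DMb2. In T cell genes they were -3.65 for Cd3e, -3.42 for Cd4, -4.39 for Cd8a, -5.09 for Cd8b1 and -3.66 for Lck. They were -5.67 for Ltb, -2.46 for Marco and -2.46 for Cd40. The fitted differences of -11.09 for Glycam1 and -8.31 for Chst4 rest on 0 counts in HFD Runx1 KO fat, depend on the prior count and are no bounds. Cd3e, Cd8a and Marco were not called in 9, 9 and 10 of the 12 fits that left out 1 library (edgeR QL adjusted p up to 0.095, 0.085 and 0.14), and Lck in 1 (adjusted p = 0.053).

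For Runx2 KO minus Runx1 KO effects, Ltb had a log2 difference of -2.20, with Ltb higher than control in all 3 Runx1 KO libraries and below the control mean in all 3 Runx2 KO libraries. It passed in 3 of the 12 fits that left out 1 library. Table and knockout cannot be told apart in these contrasts.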

How the results depend on the processing

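In HFD fat the 32 calls became 35 with the DESeq2 test, 24 without a count filter and 29 with a replicate block, all lower, and 22 to 32 with 1 library left out. Over all genes the 318 calls became 517 with DESeq2 and 206 with the block, and 120 to 394 with 1 library left out. In Runx1 KO fat the 1189 calls became 2286 with DESeq2 and 744 with the block, and 99 to 1381 with 1 library left out. Of the 37 genes 5 were called with DESeq2 and 1 with the block. Lower were 2 with DESeq2 size factors, 4 with DESeq2, 2 without a count filter and 0 with the block. With 1 library left out, 0 to 5 were called, 0 to 4 lower and 0 to 1 higher. In Runx2 KO fat DESeq2 called 1039 genes and 14 of the 37, all lower, and leaving out 1 library gave 0 to 6354 genes and 0 to 35 of the 37. For Runx2 minus Runx1 effects 11 of the 37 and 1618 genes were called with DESeq2, 0 and 8 with the block, and 0 to 34 and 3 to 4173 with 1 library left out. For HFD Runx1 minus Runx1 effects the gene count was 1378 with DESeq2, 261 with the block and 308 to 833 with 1 library left out, and that of the 37 was 21 with the block and 23 to 28 with 1 library left out.

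Without Runx2 flox libraries 1 and 2 (chosen after seeing the data), 135 genes were called in Runx2 KO fat and, for Runx2 minus Runx1 effects, 62 genes and 0 of the 37. Signs turned in Runx2 KO fat for Cd79a (log2 0.27), Ms4a1 (1.34), Cr2 (1.07), Fcer2a (1.16), Cd22 (1.34), H2-Ob (0.24), Cd74 (0.43), H2-Aa (0.21), H2-DMb2 (0.44), Chst4 (0.086), Madcam1 (0.21), Cd209b (0.50), Marco (0.68), Cd40 (0.038) and Runx2 (0.049). They turned for Runx2 minus Runx1 effects in Cd79a (0.33), Ms4a1 (1.42), Cr2 (1.23), Fcer2a (1.09), Cd22 (1.84), H2-Ob (0.60), Cd74 (0.85), H2-Aa (0.67), H2-DMb2 (0.48), Chst4 (0.45), Madcam1 (0.64), Cd209b (1.20) and Marco (1.02). In Runx1 KO fat H2-DMb2 was -0.0056 with DESeq2 size factors, -0.0057 with DESeq2 and -0.044 with the block, against 0.0079. With 1 library left out, genes near 0 there changed sign, ranging from -0.13 to 0.13 for Cd79a, -0.23 to 0.12 for Ms4a1, -0.25 to 0.064 for Cr2, -0.23 to 0.32 for H2-DMb2, -0.20 to 0.10 for Cd3e, -0.16 to 0.11 for Cd4 and -0.65 to 0.18 for Marco. Chst4 ranged from -0.26 to 0.14 for Runx2 minus Runx1 effects. None of these sign changes was a call, and their cause was not tested. The replicate numbers share no stated source, and same-numbered libraries correlated at r = -0.205 to 0.329 in the Runx1 pair, 0.026 to 0.413 in the Runx2 pair and -0.214 to -0.076 in HFD fat, so the block is only an alternative.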
